A study of Homo sapiens with 6 samples.

Results

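The genes described here are 39 components and regulators of autophagy and of the lysosome, taken by symbol from a named list. They comprise 21 autophagy genes, 16 lysosomal genes and the transcription factors TFEB and TFE3. All 39 averaged 10 counts or more across the libraries, as did 15126 of the 60498 genes in the count table. RNA was sequenced from SKOV3 (SK-OV-3), an established human ovarian cancer cell line, to compare STING1 haplotypes in an otherwise shared genetic background. STING1 is the receptor for cGAMP, the cyclic dinucleotide made by cGAS when DNA is found in the cytosol, and HAQ is a common STING1 haplotype of linked amino acid changes. The parent cells carry a WT and a HAQ allele (WT/HAQ), and CRISPR/Cas9 with paired guide RNAs was used to remove either allele, which gave clones that kept the WT allele (WT/-) or the HAQ allele (HAQ/-). Each of the 3 lines was sequenced as a control and after 2'3'-cGAMP at 10 μg/mL for 30 min and 4 h of rest, with 1 library per line and treatment. The edited lines were made with lentivirus and puromycin selection and grown from limiting dilution, so each is a clone, and the effects of genotype and clone cannot be told apart. cGAMP was delivered in a buffer that permeabilizes cells with digitonin, and how the control cells were handled is not given in the sources used here.

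In autophagy, the ULK kinases and the BECN1 lipid kinase complex start a membrane that the ATG conjugation enzymes coat with ATG8 proteins, cargo receptors bind both ATG8 and the cargo, and the closed autophagosome fuses with a lysosome whose hydrolases digest the contents. TFEB and TFE3 are related transcription factors that move to the nucleus when lysosomes are stressed or nutrients are short and bind CLEAR elements in the promoters of many autophagy and lysosome genes. STING1 is linked to both systems, since cGAMP-bound STING1 triggers ATG8 lipidation that depends on ATG16L1 and is itself degraded in lysosomes.

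The libraries held 17608467 counts for the WT/HAQ control, 16719799 for WT/HAQ cGAMP, 17060710 for the WT/- control, 12444822 for WT/- cGAMP, 17022809 for the HAQ/- control and 13686498 for HAQ/- cGAMP. Normalized counts below are TMM-scaled counts at a common library size. STING1, the edited gene, had 669 normalized counts in the WT/HAQ control and 1780.3 after cGAMP, next to 353 and 553 for WT/- and 213 and 403 for HAQ/-. Both clones were below the parent in the control and the cGAMP library, and HAQ/- was the lowest. In the line tests, STING1 in WT/- was under WT/HAQ (log2 difference -1.32, SE 0.191, edgeR adjusted p = 0.0247), as was HAQ/- (log2 difference -1.92, SE 0.195, edgeR adjusted p = 0.0273), and it rose with cGAMP (log2 difference 1.01, SE 0.158, edgeR adjusted p = 0.0447). The HAQ/- difference from WT/HAQ and the rise with cGAMP ended as calls when WT/- was left out, where 0 of 15128 genes passed either test. IFIT1, an interferon-stimulated gene listed as a check of the response, had 104 normalized counts in the WT/HAQ control and 27734 after cGAMP, next to 234 and 25399.5 for WT/- and 152 and 8042 for HAQ/-. ISG15, MX1 and IFNB1 were listed as checks too. IFNB1 had 4.42 normalized counts in the WT/HAQ control and 1259.4 after cGAMP, next to 1.87 and 2583.09 for WT/- and 5.23 and 16.42 for HAQ/-. The IFNB1 controls rest on 5, 2 and 6 counts in the same order. For each of these genes the treated library was the higher in each line.

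The cells carried most of the listed markers of an epithelial line, while WT1 (2 to 25 counts per library) and MUC16 (1 to 72) were low. All 10 epithelial and ovarian carcinoma markers were analysed, and ERBB2 was the most abundant of them, with 76640 counts in the WT/HAQ control. Their summed counts, in the order WT/HAQ control, WT/HAQ cGAMP, WT/- control, WT/- cGAMP, HAQ/- control and HAQ/- cGAMP, were 127999, 98041, 94612, 54551, 105563 and 80097. Of 10 leukocyte markers, 0 reached a mean count of 10, their summed counts in the same order were 14, 13, 19, 8, 20 and 8, CSF1R was the most abundant, and MS4A1 and NKG7 had 0 counts in every library. Of 9 fibroblast and endothelial markers, 6 were analysed, with COL1A1 the most abundant and summed counts of 1544, 1697, 2173, 1684, 2396 and 1983, and CDH5 had 0 counts in both the WT/HAQ and the HAQ/- cGAMP library. PDGFRB had 0 counts in the HAQ/- control. KRT19, picked out after its values were seen, had 6369 counts in the WT/HAQ control against 390 for WT/- and 474 for HAQ/-. By scaled counts, KRT7 and PAX8 were lowered at least 1.5-fold after cGAMP in WT/HAQ and WT/-, and KRT19 was lowered in WT/HAQ. In HAQ/- 0 of the 10 epithelial markers were lowered by that rule. The shares of all genes lowered were 12.3% (WT/HAQ), 8.79% (WT/-) and 5.79% (HAQ/-). PAX8 (5288 to 2993 counts) and KRT7 (4115 to 2547) were lower in HAQ/- after scaling too, short of 1.5-fold. WT1 and MUC16 met the rule for raised in each line on few counts, from 2 to 4 for WT1 in WT/- and from 1 to 4 for MUC16 in HAQ/-, where the control lies under the floor of 3 counts, so a rise in each line is not shown.

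Per kilobase of transcript, the members spanned a wide range of levels. PSAP, the precursor of the saposins that help hydrolases reach lipids, was the highest at a mean of 8459 normalized counts per kb over the 6 libraries. By the same mean, SQSTM1, the p62 cargo receptor, followed at 4675, and the proteases CTSD and CTSB had 3976 and 2866. CTSD was above SQSTM1 in WT/HAQ cGAMP (4815 against 2634) and HAQ/- cGAMP (3781 against 3245). At the low end were LAMP3 at 22.2, the kinase ULK2 at 41.6 and CTSS at 61.5. LAMP3 was above ULK2 in treated WT/HAQ (54.1 against 40.8) and treated WT/- (58.5 against 42.5). The plot of levels per kb shows the members in order, with LAMP3, CTSS and CTSL as those whose libraries spread widely.

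**Figure D1:**
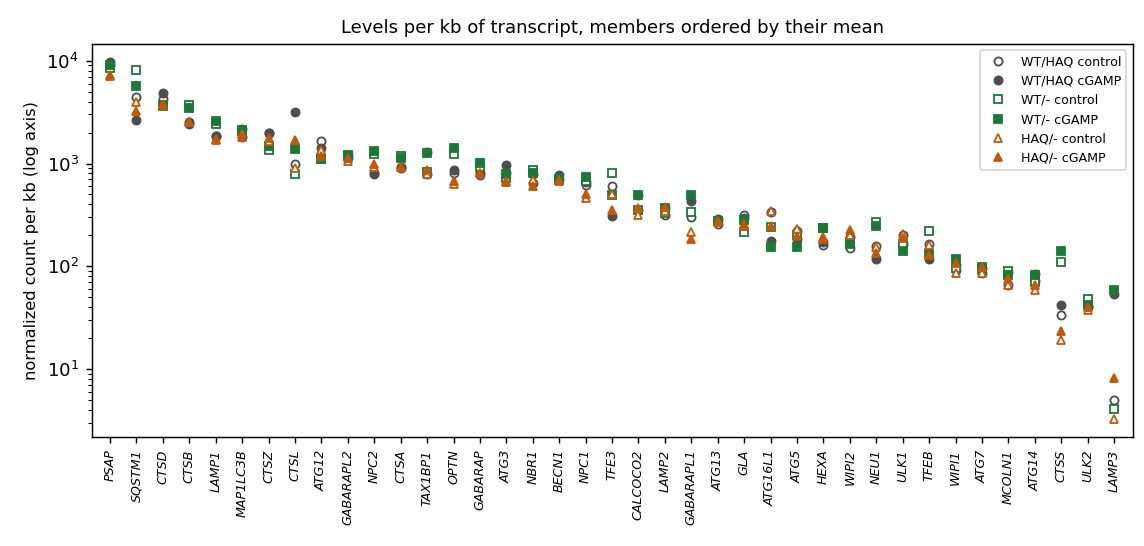
Normalized counts per kb of canonical transcript (log axis) for the 39 members, ordered by their mean over the 6 libraries. Open symbols are control and filled symbols cGAMP libraries, 1 point per library. PSAP is highest at a mean of 8459 per kb and LAMP3 lowest at 22.2.

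The effect of cGAMP common to the lines was tested with line as a block. Of the 39 members, 2 rose with cGAMP, LAMP3 and CTSL, and 2 fell, TFE3 and ATG16L1. Over all genes 2.27% rose and 0.959% fell at an edgeR adjusted p under 0.05. The members that rose are lysosomal, and those that fell are a transcription factor and an autophagy gene. At an unadjusted p under 0.05, 6 members were higher and 7 lower, beside 1755 and 2064 of the 15126 genes. The calls depended on which lines were included, since 0 of 15128 genes passed without WT/-, whereas without HAQ/- 5 members were higher and 4 lower beside 1313 and 1314 of 15144 genes. Without the line term 0 members passed, and of all genes 57 were higher and 4 lower.

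TFE3 (ENSG00000068323, chrX:49028726-49043410 of GRCh38, minus strand) had 1998 normalized counts in the WT/HAQ control and 1021 after cGAMP, next to 2674 and 1613 for WT/- and 1649.7 and 1163 for HAQ/-. The control library was the higher in every line, and the WT/- libraries were the highest of their treatment. The log2 fold change was -0.97 (WT/HAQ), -0.73 (WT/-) and -0.51 (HAQ/-), and the fall passed the test (log2 difference -0.73, SE 0.105, edgeR adjusted p = 0.0365). TFEB, the best-known member of the same factor family, had 386 normalized counts in the WT/HAQ control and 278 after cGAMP, next to 512 and 305 for WT/- and 373 and 298 for HAQ/-. Its control library was also the higher in each line, with log2 fold changes of -0.48 (WT/HAQ), -0.75 (WT/-) and -0.32 (HAQ/-), but the test was not passed (log2 difference -0.52, SE 0.110, edgeR adjusted p = 0.0740). Without HAQ/- the adjusted p of TFEB was 0.0183, without WT/HAQ 0.237 and without WT/- 0.392. Without WT/HAQ the adjusted p of TFE3 was 0.0949 and without WT/- it was 0.334. The log2 differences of TFE3 in these fits were -0.62 and -0.73. These are transcript levels, and where the factors were in the cells was not measured.

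TFEB and TFE3 bind the CLEAR core TCACGTGA, which contains the E-box CACGTG, and both were looked for on either strand in RefSeq promoters of GRCh38.p14 that run from 250 bases before to 50 bases after the start of a gene. The table held promoters of 33 of the 39 members, without LAMP2, LAMP3, CTSB, CTSS, HEXA and PSAP. The CLEAR core was found in 4 of the 33 (12.1%) and in 283 of 27305 promoters in all (1.04%). Those 4 are LAMP1, MCOLN1 and CTSA among 10 lysosomal promoters and ATG3 among 21 autophagy promoters. The E-box was found in 7 of the 33 (21.2%) and in 7.43% of all promoters. An interferon-stimulated response element, written as GAAA, any 2 bases and GAAA, was found in 0 of the 33 and in 3.65% of all promoters. The 4 promoters with the core are printed because they hold the letters these factors recognise, and that of CTSL because CTSL rose with cGAMP, with the CLEAR core and the E-box in capitals.
LAMP1, chr13:113296989-113297288, plus strand: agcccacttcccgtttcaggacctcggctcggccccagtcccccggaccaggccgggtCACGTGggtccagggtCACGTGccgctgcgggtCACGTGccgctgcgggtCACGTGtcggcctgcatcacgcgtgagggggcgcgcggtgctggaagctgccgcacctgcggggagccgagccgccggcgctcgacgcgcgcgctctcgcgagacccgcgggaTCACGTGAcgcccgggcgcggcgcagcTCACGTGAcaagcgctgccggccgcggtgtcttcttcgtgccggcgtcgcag
MCOLN1, chr19:7522374-7522673, plus strand: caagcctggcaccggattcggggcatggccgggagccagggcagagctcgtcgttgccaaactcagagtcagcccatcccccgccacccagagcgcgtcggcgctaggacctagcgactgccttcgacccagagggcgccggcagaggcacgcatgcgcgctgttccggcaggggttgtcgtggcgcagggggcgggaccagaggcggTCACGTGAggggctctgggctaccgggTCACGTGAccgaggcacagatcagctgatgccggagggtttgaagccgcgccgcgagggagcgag
CTSA, chr20:45891085-45891384, plus strand: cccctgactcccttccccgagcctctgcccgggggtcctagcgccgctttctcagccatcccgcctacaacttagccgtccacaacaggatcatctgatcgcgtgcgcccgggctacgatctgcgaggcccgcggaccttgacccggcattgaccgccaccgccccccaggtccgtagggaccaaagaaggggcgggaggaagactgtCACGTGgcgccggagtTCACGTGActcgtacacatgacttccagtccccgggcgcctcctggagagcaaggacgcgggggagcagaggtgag
ATG3, chr3:112561913-112562212, minus strand: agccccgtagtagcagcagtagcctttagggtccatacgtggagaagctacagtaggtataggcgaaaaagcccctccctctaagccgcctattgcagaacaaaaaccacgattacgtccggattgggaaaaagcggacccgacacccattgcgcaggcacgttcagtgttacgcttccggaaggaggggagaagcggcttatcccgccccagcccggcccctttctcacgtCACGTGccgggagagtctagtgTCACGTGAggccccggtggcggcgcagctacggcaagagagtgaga
CTSL, chr9:87725869-87726168, plus strand: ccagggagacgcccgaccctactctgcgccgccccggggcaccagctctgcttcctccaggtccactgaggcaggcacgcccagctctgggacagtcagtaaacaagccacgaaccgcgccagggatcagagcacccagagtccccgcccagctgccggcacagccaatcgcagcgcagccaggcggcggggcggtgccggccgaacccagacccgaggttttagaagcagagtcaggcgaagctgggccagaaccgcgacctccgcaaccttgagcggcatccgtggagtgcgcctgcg
The LAMP1 window holds 2 CLEAR cores and 6 E-boxes with those inside the cores counted, and the MCOLN1 window holds 2 CLEAR cores. Neither motif is in the CTSL window.

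None of the 4 genes with the core reached 1.5-fold with cGAMP in any line. Of all genes, 12.9% were raised and 12.3% lowered in WT/HAQ, 11.9% and 8.79% in WT/-, and 6.77% and 5.79% in HAQ/-. Beside these shares, 0 of 4 does not set the genes with the core apart. LAMP1, a major lysosomal membrane glycoprotein, had log2 fold changes of 0.01 (WT/HAQ), 0.08 (WT/-) and 0.02 (HAQ/-). MCOLN1, the lysosomal calcium channel, gave 0.43 (WT/HAQ), -0.13 (WT/-) and 0.21 (HAQ/-). CTSA, the protective protein that stabilizes NEU1, gave 0.04 (WT/HAQ), -0.06 (WT/-) and 0.02 (HAQ/-), and the conjugation enzyme ATG3 gave 0.25 (WT/HAQ), 0.14 (WT/-) and -0.03 (HAQ/-). None of these passed the cGAMP test with edgeR, in which all 4 had adjusted p-values of at least 0.427. In that test 2.27% of all genes rose and 0.959% fell.

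Among the 7 genes of autophagy initiation and nucleation, 0 passed the cGAMP test with edgeR or with DESeq2. Of all 15126 genes, edgeR called 344 higher and 145 lower, and DESeq2 called 772 and 583. Unadjusted edgeR p-values under 0.05 were found for 1 higher and 1 lower of the 7, beside 1755 and 2064 of all genes. ULK1, the kinase that starts the process, had 1085 normalized counts in the WT/HAQ control and 885 after cGAMP, next to 868 and 749 for WT/- and 1103 and 1002 for HAQ/-. It was lower after cGAMP in all 3 lines by small amounts (log2 fold changes of -0.29 (WT/HAQ), -0.21 (WT/-) and -0.14 (HAQ/-)) and did not pass (log2 difference -0.21, SE 0.0701, edgeR adjusted p = 0.144). The other 6 are ULK2, the ULK-complex subunit ATG13, BECN1 and its partner ATG14, and the lipid binders WIPI1 and WIPI2. Their log2 fold changes lay between -0.19 for ULK2 in WT/- and 0.37 for WIPI2 in WT/HAQ.

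Conjugation was represented by ATG3, ATG5, ATG7, ATG12 and ATG16L1, of which 1 fell, beside 0.959% of all genes. ATG16L1 (ENSG00000085978, chr2:233210051-233295674 of GRCh38, plus strand), which places the ATG12-ATG5 conjugate on membranes, had 1113 normalized counts in the WT/HAQ control and 576 after cGAMP, next to 799.8 and 513 for WT/- and 1149 and 812 for HAQ/-. Each cGAMP library was below every control library except that HAQ/- cGAMP lay just above the WT/- control. The log2 fold change was -0.95 (WT/HAQ), -0.64 (WT/-) and -0.50 (HAQ/-) (log2 difference -0.70, SE 0.106, edgeR adjusted p = 0.0430). Without WT/HAQ the edgeR adjusted p was 0.104 and without WT/- 0.334. The log2 differences of ATG16L1 in these fits were -0.57 and -0.71. ATG5, its partner, was also lower after cGAMP in all 3 lines, with log2 fold changes of -0.27 (WT/HAQ), -0.39 (WT/-) and -0.24 (HAQ/-), and did not pass (log2 difference -0.29, SE 0.0724, edgeR adjusted p = 0.0903). ATG12, the ubiquitin-like protein joined to ATG5, had 6623 normalized counts in the WT/HAQ control and 5718 after cGAMP, next to 4421 and 4504 for WT/- and 5415 and 4825 for HAQ/-. The cGAMP library of ATG12 was lower in WT/HAQ and HAQ/- and nearly level with the control in WT/-. ATG7, the activating enzyme, had log2 fold changes of -0.17 (WT/HAQ), 0.08 (WT/-) and 0.20 (HAQ/-).

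The ATG8 family, which coats the growing membrane, had 0 of 4 genes that passed the cGAMP test with edgeR, beside 2.27% higher and 0.959% lower of all genes. It had 0 at an unadjusted p under 0.05, beside 1755 higher and 2064 lower of 15126 genes. With DESeq2 it had 0, beside 772 and 583. GABARAPL1 had 571 normalized counts in the WT/HAQ control and 809 after cGAMP, next to 636 and 928 for WT/- and 409 and 346 for HAQ/-. It was higher after cGAMP in WT/HAQ and WT/- and lower in HAQ/-. The log2 fold changes were 0.50 (95% counting interval 0.35 to 0.65), 0.54 (0.39 to 0.70) and -0.24 (-0.45 to -0.04), and the difference between lines was not tested. Without HAQ/- the edgeR adjusted p of GABARAPL1 was 0.0107, without WT/HAQ 0.761 and without WT/- 0.788. MAP1LC3B, the usual autophagosome marker, had log2 fold changes of -0.26 (WT/HAQ), 0.00 (WT/-) and -0.08 (HAQ/-). GABARAP and GABARAPL2 had log2 fold changes from -0.08 to 0.13. Reads of GABARAPL1 and MAP1LC3B could be split with their near-identical copies GABARAPL3 and MAP1LC3B2, so these levels are uncertain. MAP1LC3B2 was given a mean of 6.33 counts, next to 4320.67 for MAP1LC3B.

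The cargo receptors went different ways. SQSTM1, which gathers ubiquitinated proteins, had 12502 normalized counts in the WT/HAQ control and 7479 after cGAMP, next to 22951 and 16176 for WT/- and 11331 and 9216 for HAQ/-. It was lower after cGAMP in each line, and both WT/- libraries were above all 4 others. The log2 fold change was -0.74 (WT/HAQ), -0.50 (WT/-) and -0.30 (HAQ/-) (log2 difference -0.51, SE 0.0988, edgeR adjusted p = 0.0644), short of the threshold. TAX1BP1, a receptor that also restrains innate immune signalling, had 2737 normalized counts in the WT/HAQ control and 4444 after cGAMP, next to 2834 and 4361 for WT/- and 2731 and 2969 for HAQ/-. The 3 control libraries lay close together, treated WT/HAQ and WT/- lay well above them, and treated HAQ/- lay just above. TAX1BP1 was raised at least 1.5-fold in WT/HAQ and WT/- (log2 fold changes of 0.70 (WT/HAQ), 0.62 (WT/-) and 0.12 (HAQ/-)) and did not pass the test over the lines (log2 difference 0.48, SE 0.129, edgeR adjusted p = 0.105). CALCOCO2, the NDP52 receptor for bacteria and damaged organelles, was level between WT/HAQ and WT/- and smaller in HAQ/-, with log2 fold changes of 0.50 (WT/HAQ), 0.50 (WT/-) and 0.23 (HAQ/-) (log2 difference 0.41, SE 0.0851, edgeR adjusted p = 0.0720). Without HAQ/-, the edgeR adjusted p was 0.00217 for TAX1BP1, 0.00807 for CALCOCO2 and 0.00187 for SQSTM1, beside 1313 higher and 1314 lower of 15144 genes. In the same order it was 0.352, 0.257 and 0.196 without WT/HAQ, and 0.428, 0.392 and 0.389 without WT/-. With all lines DESeq2 called these 3 genes, beside 772 higher and 583 lower of all genes. SQSTM1 also passed among genes with a mean count of 1 or more (0.0314). OPTN and NBR1 had smaller folds, on the log2 scale 0.12 to 0.19 for OPTN and -0.28 to -0.07 for NBR1.

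Of the 5 lysosomal membrane proteins, LAMP3 alone rose in the edgeR test, beside 2.27% of all genes. LAMP3 (ENSG00000078081, chr3:183122215-183163839 of GRCh38, minus strand), an interferon-inducible lysosomal glycoprotein best known in dendritic cells, had 15.9 normalized counts in the WT/HAQ control and 173 after cGAMP, next to 13.1 and 187 for WT/- and 10.5 and 26.3 for HAQ/-. It was low in all control libraries and high in treated WT/HAQ and WT/-, with treated HAQ/- in between. The fold was 10.9 in WT/HAQ (95% counting interval 6.73 to 17.6), 14.3 in WT/- (8.32 to 24.6) and 2.51 in HAQ/- (1.27 to 4.95), where it rests on 12 counts in the control and 24 in the cGAMP library. The rise passed the test (log2 difference 3.07, SE 0.478, edgeR adjusted p = 0.0444), and the adjusted p was 0.191 without WT/HAQ and 0.364 without WT/-. The log2 differences of LAMP3 in these fits were 2.81 and 2.60. On the log2 scale the fold in HAQ/- was below that in WT/- by 2.51, a difference with a counting interval of -3.79 to -1.24 and no test. LAMP2, a lysosomal membrane glycoprotein with a role in chaperone-mediated autophagy, had log2 fold changes of 0.24 (WT/HAQ), 0.17 (WT/-) and 0.10 (HAQ/-), and NPC1, the cholesterol exporter, 0.10 (WT/HAQ), 0.12 (WT/-) and 0.13 (HAQ/-).

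In the lumen, CTSL rose and 10 others did not pass the edgeR test, in which 2.27% of all genes rose. CTSL (ENSG00000135047, chr9:87724051-87731469 of GRCh38, plus strand), a cysteine protease, had 1652 normalized counts in the WT/HAQ control and 5272 after cGAMP, next to 1297 and 2273 for WT/- and 1481 and 2806 for HAQ/-. The cGAMP library was the higher in each line, and WT/HAQ cGAMP stood above all other libraries. The fold was 3.19 (WT/HAQ), 1.75 (WT/-) and 1.89 (HAQ/-), and the rise passed the test (log2 difference 1.14, SE 0.183, edgeR adjusted p = 0.0462). The call was close to the threshold, with edgeR adjusted p-values of 0.0520 with DESeq2 size factors, 0.0540 with total counts only and 0.0517 among genes with a mean count of 50 or more. They were 0.301 without WT/- and 0.0345 without WT/HAQ, where the log2 differences were 1.31 and 0.87. CTSS, the cysteine protease of antigen-presenting cells, was higher after cGAMP in each line by a similar amount (log2 fold changes of 0.32 (WT/HAQ), 0.37 (WT/-) and 0.31 (HAQ/-)) and did not pass (log2 difference 0.34, SE 0.0949, edgeR adjusted p = 0.112). NEU1, a sialidase, was lower in each line, with log2 fold changes of -0.44 (WT/HAQ), -0.12 (WT/-) and -0.18 (HAQ/-). The aspartic protease CTSD, the cysteine proteases CTSB and CTSZ, HEXA, GLA, PSAP and NPC2 lay between -0.12 for CTSB and 0.38 for GLA, both in WT/-.

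**Figure D2:**
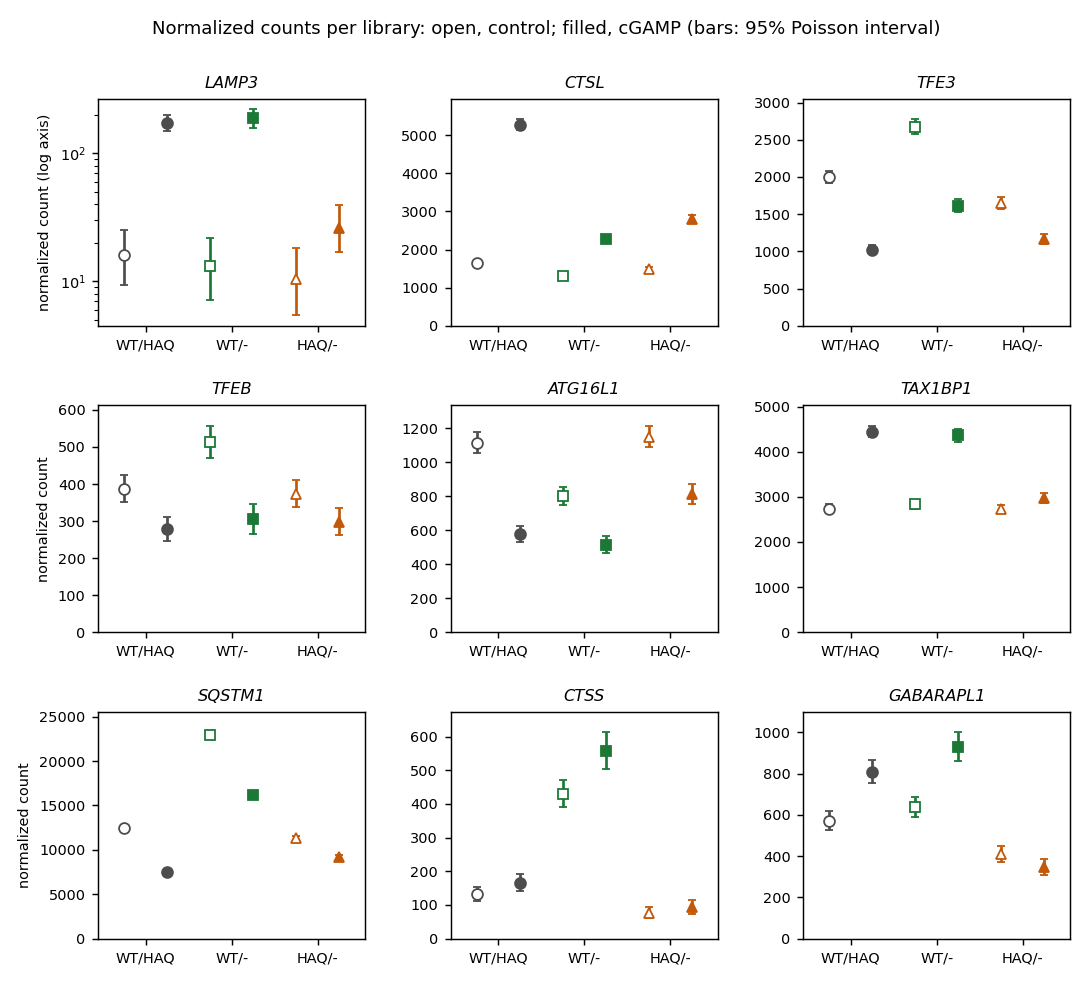
Normalized counts per library for 9 members, with 95% Poisson intervals that cover counting error only. The vertical axis of LAMP3 is logarithmic and the others start at 0, with open symbols for control and filled symbols for cGAMP. TFE3, TFEB, ATG16L1 and SQSTM1 are lower after cGAMP in each line, LAMP3 and CTSL higher, and GABARAPL1 is higher in WT/HAQ and WT/- and lower in HAQ/-.

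Line by line, few members reached 1.5-fold with cGAMP. In WT/HAQ 3 members were raised (TAX1BP1, LAMP3, CTSL) and 3 lowered (TFE3, ATG16L1, SQSTM1), beside 12.9% and 12.3% of all genes. In WT/- 3 were raised (TAX1BP1, LAMP3, CTSL) and 3 lowered (TFEB, TFE3, ATG16L1), beside 11.9% and 8.79%. In HAQ/- 2 were raised (LAMP3, CTSL) and 0 lowered, beside 6.77% and 5.79%. With 1 library per group there is no test of these folds, and counts of 2 or 3 in 39 members are shares below those over all genes. The plot of cGAMP folds shows most members near 0 in all 3 lines.

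**Figure D3:**
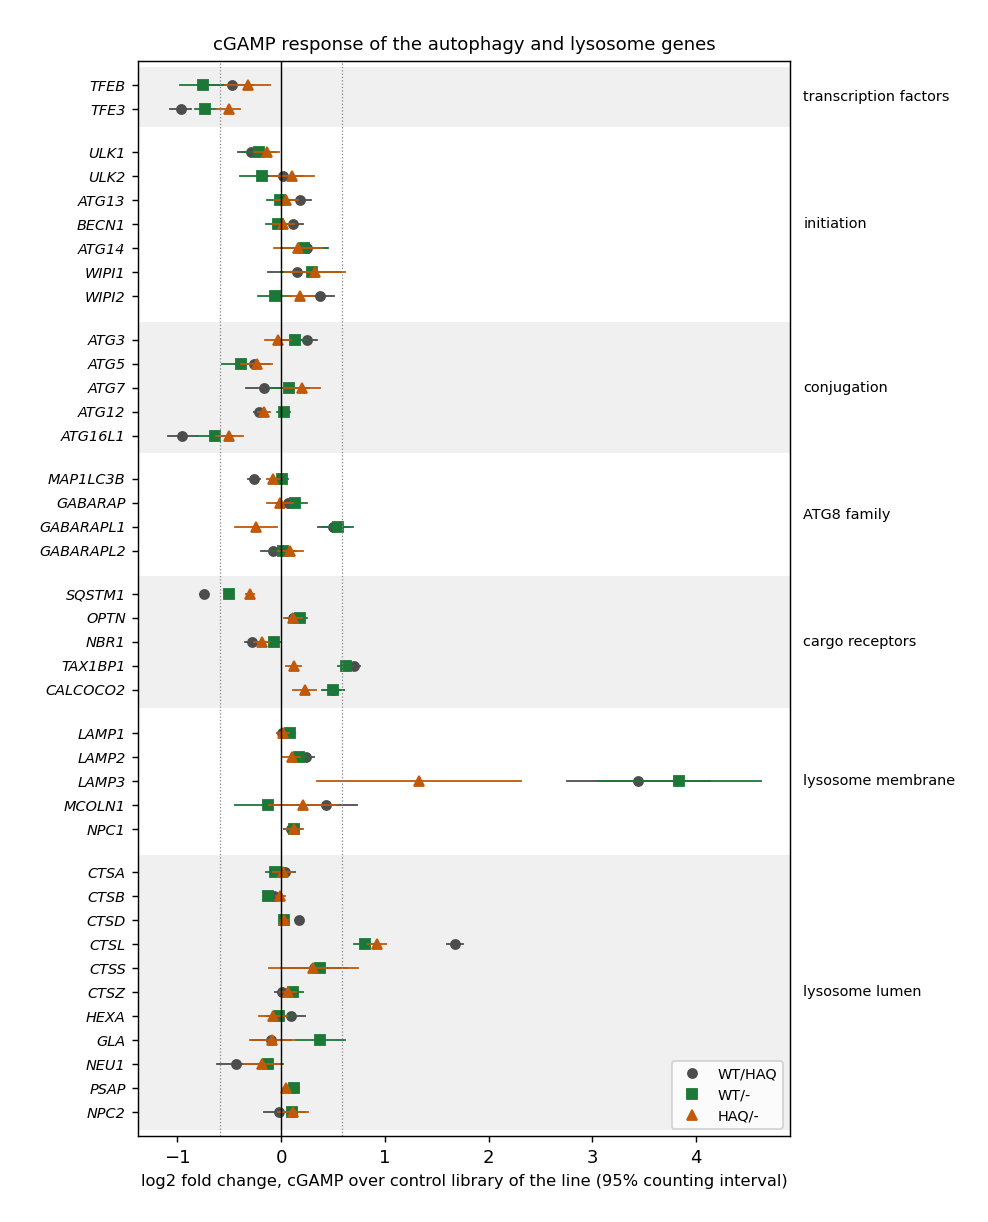
Log2 fold change of each member with cGAMP, as the ratio of normalized counts in the cGAMP and control library of a line, by role. Bars are 95% counting intervals, dotted lines mark 1.5-fold, and LAMP3 and CTSL stand to the right in each line while TFE3 and ATG16L1 stand to the left.

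Autophagy and lysosomal members were set side by side. The median log2 fold change of the 21 autophagy members was 0.07 (WT/HAQ), 0.02 (WT/-) and 0.02 (HAQ/-). For the 16 lysosomal members it was 0.09, 0.11 and 0.06, and over all genes it was -0.01 in WT/HAQ and -0.01 in HAQ/-, with 7547 genes above and 7552 below 1 in WT/-. Of the lysosomal members, 12 (WT/HAQ), 11 (WT/-) and 12 (HAQ/-) were higher with cGAMP, and 9 of the 16 were higher and 2 lower (CTSB and NEU1) in all 3 lines. Of the autophagy members, 12, 12 and 11 were higher, and 5 of the 21 were higher and 5 lower in all 3 lines. Over all genes, 23.8% were higher and 26.5% lower in all 3. The folds behind these counts were small, with LAMP3 and CTSL as the lysosomal members past 1.5-fold.

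Autophagy transcripts took a smaller share of the library after cGAMP in each line. They made up 0.294% of the control and 0.258% of the cGAMP library in WT/HAQ, 0.350% and 0.309% for WT/-, and 0.279% and 0.257% for HAQ/-. Without SQSTM1, which was taken out after its values were seen, the share was 0.214% of the control and 0.211% of the cGAMP library in WT/HAQ, 0.205% and 0.212% for WT/-, and 0.203% and 0.196% for HAQ/-. Lysosomal transcripts made up 0.398% of the control and 0.436% of the cGAMP library in WT/HAQ, 0.414% and 0.417% for WT/-, and 0.364% and 0.378% for HAQ/-. Without CTSL, also chosen after its values were seen, these shares were 0.387% of the control and 0.403% of the cGAMP library in WT/HAQ, 0.406% and 0.404% for WT/-, and 0.354% and 0.360% for HAQ/-. The share of the autophagy members without SQSTM1 was lower after cGAMP in WT/HAQ and HAQ/- and higher in WT/-, and that of the lysosomal members without CTSL was higher in WT/HAQ and HAQ/- and lower in WT/-.

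**Figure D4:**
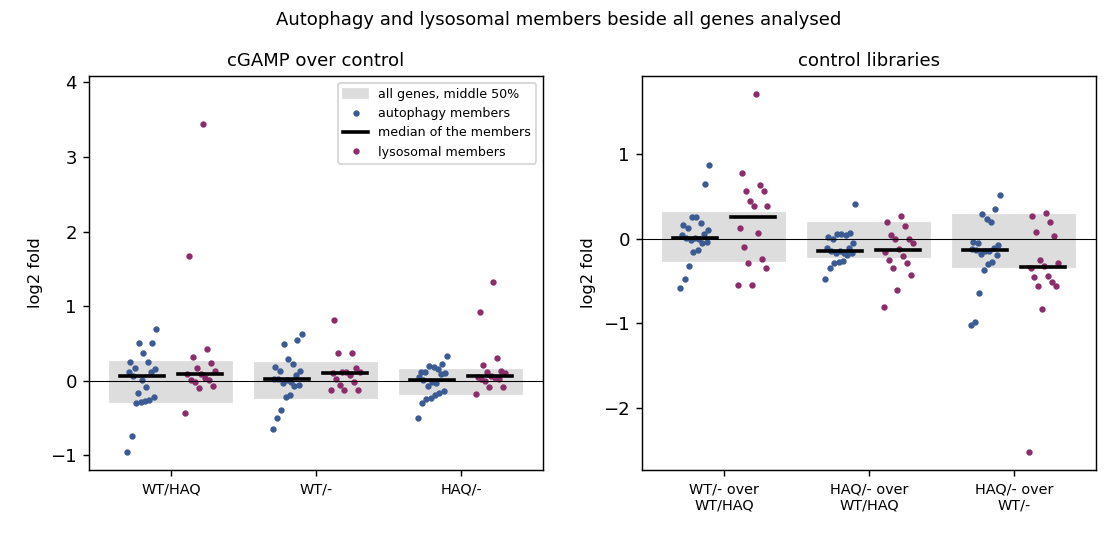
Log2 fold of each autophagy and lysosomal member with cGAMP in each line (left) and between control libraries (right), where each pair of comparisons shares a library. Black bars are medians of the members and grey boxes the middle 50% of all genes analysed. The medians with cGAMP lie between 0.02 and 0.11, and the lysosomal median is 0.26 for WT/- over WT/HAQ and -0.33 for HAQ/- over WT/-.

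More members passed the test between WT/- and either other line, over control and cGAMP libraries, than passed the test of cGAMP. The same was so for all genes, of which 2.27% rose and 0.959% fell with cGAMP. In WT/- against WT/HAQ, 8 members were higher (CTSS, OPTN, NEU1, SQSTM1, NPC2, CTSB, HEXA and LAMP1) and 2 lower (CTSZ and ATG12), beside 4.99% and 3.81% of all genes. In HAQ/- against WT/HAQ, 0 members were higher and 0 lower with edgeR, beside 0.377% and 0.846% of all genes. At an unadjusted p under 0.05, 2 were higher and 12 lower there, beside 1214 and 1617 of all genes. DESeq2 called 0 members higher and 2 lower (CTSS and GABARAPL1), beside 182 and 380 of all genes. In HAQ/- against WT/-, 2 members were higher (ATG16L1 and ULK1) and 12 lower (CTSS, OPTN, NEU1, SQSTM1, NPC1, LAMP1, CTSB, NPC2, GABARAPL1, TFE3, PSAP and NBR1), beside 7.94% and 11.1%. That comparison moved with scaling, since 1201 genes were higher and 1679 lower with TMM against 2062 and 1249 with total counts only, where the median of all genes in the control libraries moved from 0.0023 to 0.10 on the log2 scale and 4 members were higher and 8 lower. In WT/- against WT/HAQ, 581 genes were higher and 648 lower with total counts only, next to 755 and 577 with TMM. The pairs share lines, so their counts are not independent. A line enters each test through its control and cGAMP library, and each edited line is a clone, so variation between clones was not measured.

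CTSS differed most. It had 132 normalized counts in the WT/HAQ control and 164 after cGAMP, next to 430.2 and 557 for WT/- and 75.0 and 93.0 for HAQ/-. Both WT/- libraries were above both WT/HAQ libraries, and both HAQ/- libraries were below them. WT/- exceeded WT/HAQ (log2 difference 1.73, SE 0.112, edgeR adjusted p = 0.00465) and HAQ/- was under WT/- (log2 difference -2.55, SE 0.119, edgeR adjusted p = 0.00140), while HAQ/- against WT/HAQ did not pass (log2 difference -0.82, SE 0.124, edgeR adjusted p = 0.0621). Leukocyte markers, whose cells express CTSS and LAMP3, summed to 19 counts in the WT/- control and 8 in the WT/- cGAMP library. Whether such cells add to the CTSS counts was not tested.

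The cargo receptors SQSTM1 and OPTN were highest in WT/-. SQSTM1, with the values above, exceeded its WT/HAQ level in WT/- (log2 difference 0.99, SE 0.122, edgeR adjusted p = 0.0176) and was lower in HAQ/- than in WT/- (log2 difference -0.91, SE 0.121, edgeR adjusted p = 0.0116). OPTN, the receptor that is phosphorylated by TBK1, had 2783 normalized counts in the WT/HAQ control and 3019.7 after cGAMP, next to 4346 and 4942 for WT/- and 2186 and 2369 for HAQ/-. All 3 lines were apart, with WT/- highest and HAQ/- lowest whatever the treatment. The OPTN difference was 1.60-fold for WT/- over WT/HAQ (edgeR adjusted p = 0.0160) and 2.04-fold for WT/- over HAQ/- (edgeR adjusted p = 0.00371). NBR1, a receptor for protein aggregates and peroxisomes, had 3621 normalized counts in the WT/HAQ control and 2977 after cGAMP, next to 3956 and 3772 for WT/- and 3208 and 2818 for HAQ/-. It was lower in HAQ/- than in WT/- (log2 difference -0.36, SE 0.0901, edgeR adjusted p = 0.0492), a call that ended with total counts only (adjusted p = 0.110), without WT/HAQ (0.0568) and with DESeq2 (0.0753).

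Of the 11 genes of the lysosomal lumen, 5 were higher and 1 lower in WT/- against WT/HAQ by the edgeR test, beside 4.99% and 3.81% of all genes, and in the control libraries 6 lay above and 5 below the WT/HAQ level. NEU1 had 530.3 normalized counts in the WT/HAQ control and 392 after cGAMP, next to 909 and 835 for WT/- and 512 and 452 for HAQ/-. WT/- was the highest, and the ranges of WT/HAQ and HAQ/- overlapped (log2 difference 0.93, SE 0.111, edgeR adjusted p = 0.0165 for WT/- over WT/HAQ). CTSB, a cysteine protease, had 9475 normalized counts in the WT/HAQ control and 9049.6 after cGAMP, next to 13954 and 12805 for WT/- and 9473 and 9426 for HAQ/-. Its WT/- libraries were above all others, and those of WT/HAQ and HAQ/- were level (log2 difference 0.53, SE 0.0771, edgeR adjusted p = 0.0249). HEXA, a subunit of beta-hexosaminidase, had 772 normalized counts in the WT/HAQ control and 822 after cGAMP, next to 1137 and 1119 for WT/- and 932 and 883 for HAQ/-. NPC2, which hands cholesterol to NPC1, had 658 normalized counts in the WT/HAQ control and 650.1 after cGAMP, next to 1020.0 and 1095 for WT/- and 752 and 813 for HAQ/-. For HEXA and NPC2 the order was WT/-, HAQ/- and WT/HAQ, with WT/- over WT/HAQ at 1.42-fold (edgeR adjusted p = 0.0349) and 1.61-fold (0.0179). CTSZ, a carboxypeptidase, had 2984 normalized counts in the WT/HAQ control and 3002 after cGAMP, next to 2043 and 2216 for WT/- and 2514 and 2636 for HAQ/-. It went the other way, with both WT/- libraries the lowest (log2 difference -0.49, SE 0.0811, edgeR adjusted p = 0.0309). CTSD, CTSL, GLA and PSAP were also lower in the WT/- control than in the WT/HAQ control and did not pass the edgeR test.

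Among membrane proteins, LAMP1 had 5003 normalized counts in the WT/HAQ control and 5041 after cGAMP, next to 6562 and 6948 for WT/- and 4606 and 4669.8 for HAQ/-. WT/- was above the other lines in both treatments, by 1.34-fold over WT/HAQ (edgeR adjusted p = 0.0378) and 1.46-fold over HAQ/- (edgeR adjusted p = 0.0138). NPC1 had 2955 normalized counts in the WT/HAQ control and 3161 after cGAMP, next to 3229.9 and 3521 for WT/- and 2189 and 2389 for HAQ/-. Here HAQ/- was the low line, at 0.678 of the WT/- level (edgeR adjusted p = 0.0127). PSAP had 24721 normalized counts in the WT/HAQ control and 26964 after cGAMP, next to 23124 and 25176 for WT/- and 19417 and 20066 for HAQ/-. HAQ/- was again below the rest, by a small margin (log2 difference -0.29, SE 0.0717, edgeR adjusted p = 0.0489), and the call ended with total counts only (0.137), without WT/HAQ (0.0810), among genes with a mean count of 50 or more (0.0523) and with DESeq2 (0.124).

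Of the autophagy genes, 7 of 21 passed in a pair of lines, and 9 of the 16 lysosomal genes did, beside 3170 of 15126 genes in all, and these shares were not tested against each other. Without HAQ/-, WT/- against WT/HAQ also had CTSA (0.0459) and TFE3 (0.0108) higher and CTSL (0.0303) and CTSD (0.0468) lower by edgeR adjusted p, and DESeq2 with all lines also called TFE3 higher and CTSL lower. ATG12 was lower in WT/- than in WT/HAQ (log2 difference -0.46, SE 0.0943, edgeR adjusted p = 0.0475), and both WT/- libraries were the lowest of the 6. ATG16L1 was higher in HAQ/- than in WT/- (log2 difference 0.59, SE 0.130, edgeR adjusted p = 0.0366), as was ULK1 (log2 difference 0.38, SE 0.0862, edgeR adjusted p = 0.0396), whose call ended without WT/HAQ (0.0537) and with DESeq2 (0.106). GABARAPL1 was lower in HAQ/- than in WT/- (log2 difference -1.01, SE 0.211, edgeR adjusted p = 0.0332), with both HAQ/- libraries under the other 4. TFE3 was lower in HAQ/- than in WT/- (log2 difference -0.58, SE 0.128, edgeR adjusted p = 0.0374), and this ended with total counts only (0.0661). NPC2 ended in the same pair with total counts only (0.0600) and with DESeq2 (0.0613).

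Levels in the control libraries alone were compared with no test. WT/- over WT/HAQ had 5 members raised at least 1.5-fold (SQSTM1, OPTN, CTSS, NEU1 and NPC2) and 0 lowered, beside 13.0% and 9.90% of all genes. HAQ/- over WT/HAQ had 0 raised and 2 lowered (CTSS and LAMP3), beside 7.40% and 8.62%, and the LAMP3 ratio has a counting interval of -1.64 to 0.43 on the log2 scale that spans 0. HAQ/- over WT/- had 0 raised and 6 lowered (TFE3, GABARAPL1, SQSTM1, OPTN, CTSS and NEU1), beside 11.7% and 15.3%. The median log2 ratio of the lysosomal members was 0.26 for WT/- over WT/HAQ, -0.14 for HAQ/- over WT/HAQ and -0.33 for HAQ/- over WT/-, and that of the autophagy members was 0.01, -0.14 and -0.13. Over all genes the medians lay between -0.02 and 0.00. These ratios share control libraries. At 2-fold or more were CTSS at 3.27 for WT/- over WT/HAQ and 5.73 for WT/- over HAQ/-, and SQSTM1 at 2.02 for WT/- over HAQ/-.

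**Figure D5:**
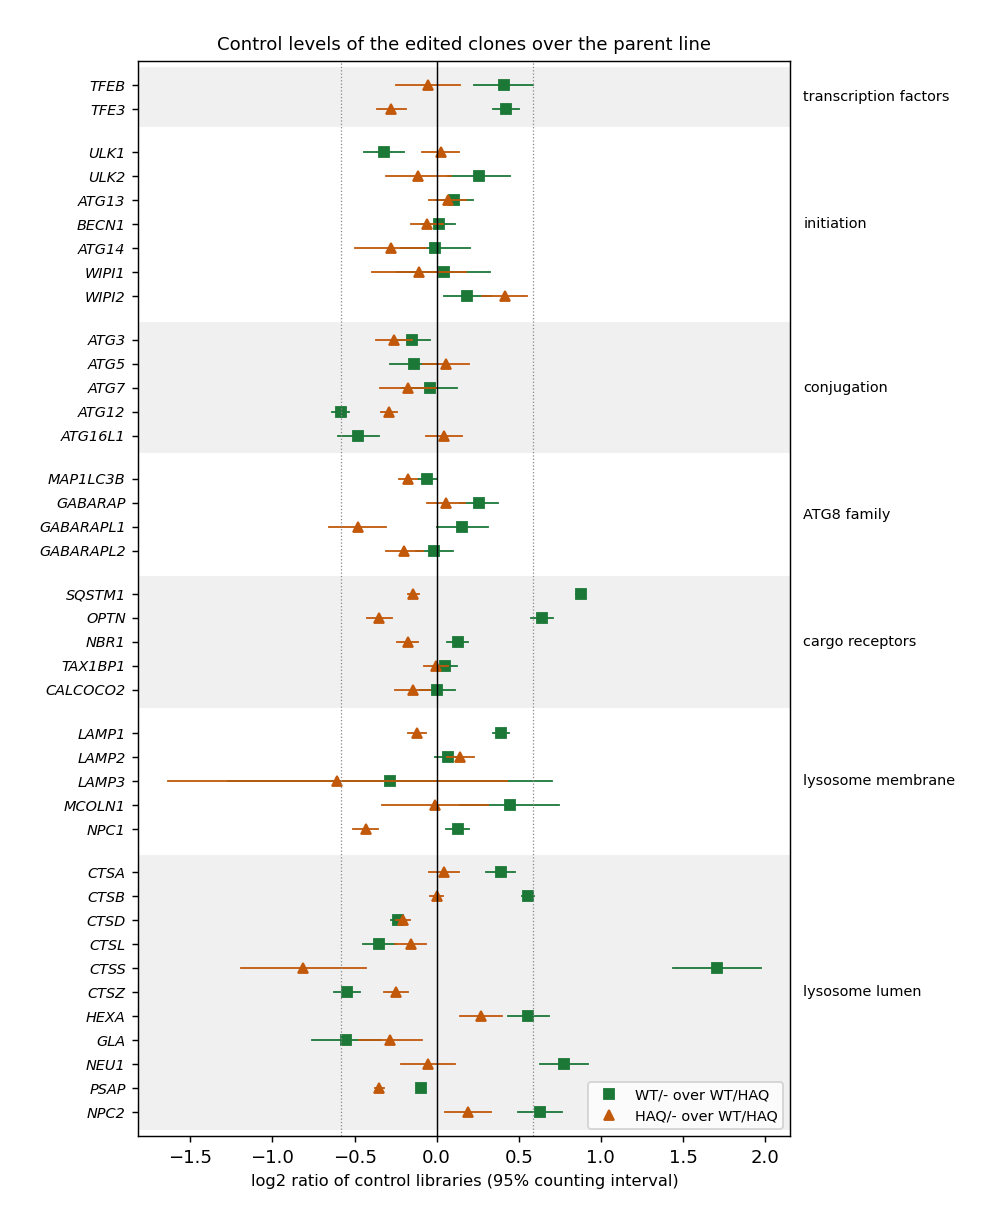
Log2 ratio of normalized counts between control libraries for each member, WT/- over WT/HAQ (squares) and HAQ/- over WT/HAQ (triangles), which share the WT/HAQ control. Bars are 95% counting intervals and dotted lines mark 1.5-fold, and CTSS, SQSTM1, NEU1, OPTN and NPC2 of WT/- lie past the right line.

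Other genes of the pathways were counted from a list of 121 further genes, of which 118 were analysed. With cGAMP, 1 rose and 1 fell in the edgeR test, beside 2.27% and 0.959% of all genes. At an unadjusted p under 0.05, 18 were higher and 14 lower, beside 1755 and 2064 of all 15126 genes. By role, other lysosomal hydrolases and activators had 1 higher and 0 lower of 31, and other autophagy machinery 0 higher and 1 lower of 30. Other cargo receptors had 0 higher and 0 lower of 12, and V-ATPase subunits 0 higher and 0 lower of 16. Other lysosomal membrane proteins and sorting receptors had 0 higher and 0 lower of 16. The group of MITF, folliculin and Rag-Ragulator genes had 0 higher and 0 lower of 13. LIPA, the acid lipase of lysosomes, had 466 normalized counts in the WT/HAQ control and 1107 after cGAMP, next to 562 and 1699 for WT/- and 394 and 614 for HAQ/-. It was higher after cGAMP in each line and most so in WT/- (log2 difference 1.17, SE 0.187, edgeR adjusted p = 0.0458). In GENCODE 44, IFIT1 lies in the span of LIPA on the opposite strand and exons of 1 of 8 LIPA transcripts overlap exons of IFIT2 and IFIT3, and since strand use in counting is not given in the sources used here, the LIPA level is uncertain. EPG5, the tether that joins autophagosomes to lysosomes, had 1096 normalized counts in the WT/HAQ control and 480 after cGAMP, next to 1785 and 695 for WT/- and 997 and 638 for HAQ/-. It was lower in each line, with the smallest fold in HAQ/- (log2 difference -1.07, SE 0.150, edgeR adjusted p = 0.0352). Between lines, the 118 genes had 7 higher and 0 lower in WT/- against WT/HAQ (beside 4.99% and 3.81% of all genes), 0 and 0 in HAQ/- against WT/HAQ (8 and 15 at an unadjusted p under 0.05, beside 1214 and 1617 of all genes), and 4 and 19 in HAQ/- against WT/- (beside 7.94% and 11.1%), all with edgeR. No line and treatment was repeated, so the p-values rest on how far these 6 libraries depart from additive line and treatment effects. A cGAMP response that differs between lines adds to that spread and cannot be told apart from variation between libraries.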

How the data were processed

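Per the submitters' processing notes, reads were aligned with STAR to GRCh38 (hg38) and the expected counts of genes were estimated with RSEM by the authors before the table was deposited, with versions of STAR and RSEM not given. Expected counts were rounded. Genes with a mean count of 10 or more were scaled by TMM and tested with edgeR 4.0.16 (quasi-likelihood, line and treatment as terms, 2 residual df, R 4.3.3), with p-values adjusted by Benjamini-Hochberg. Single folds are ratios of scaled counts with a floor of 3 counts and Wilson 95% intervals, and a gene is raised or lowered at 1.5-fold. Levels per kb use canonical transcripts of GENCODE 44. Values in each library are given for STING1, for members that passed a test, reached 1.5-fold with cGAMP the same way in 2 or more lines, differed 2-fold between controls or were among the 3 at either end of the mean fold, and for other pathway genes that passed the cGAMP test or reached 1.5-fold in all lines. The 18 other members are given by folds. IFIT1, ISG15, MX1 and IFNB1 were listed as response checks. The members and lists were chosen with earlier results of these data known. Alternatives were DESeq2 1.42.0, its size factors, total counts only, mean counts of 1 and 50, no line term, each line left out, thinned libraries, a floor of 10, and folds of 1.2 and 2. The shares without SQSTM1 and without CTSL were added after the values were seen. The scripts were tested on simulated data.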

Additional observations from a re-analysis of the deposited data

Results flagged for a closer look

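GABARAPL1 was picked because its counting intervals with cGAMP lie above 0 on the log2 scale in 2 lines and below 0 in the third. Its log2 fold change was 0.50 in WT/HAQ and 0.54 in WT/-, and it was -0.24 in HAQ/-, and the difference was not tested. A mixed direction alone is common, since 16 of 39 members did not go the same way in all 3 lines. Of all genes, 23.8% were higher and 26.5% lower in all 3 lines, and the rest were mixed. How many of all genes meet the rule with intervals is not given here.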

How the results depend on the processing

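With cGAMP, 2 members were higher (344 of all genes), and this became 4 with DESeq2 (772), 1 with DESeq2 size factors (308), 1 with total counts only (300), 1 at a mean count of 50 (250), 0 without the line term (57) and 0 to 5 with a line left out (0 to 1313). The 2 lower members (145 of all genes) became 3 with DESeq2 (583) and at a mean count of 1 (424), with SQSTM1 added, 0 without the line term (4) and 0 to 4 with a line left out (0 to 1314). For WT/- over WT/HAQ the 2 lower (577) became 4 without HAQ/- (1083). For HAQ/- over WT/HAQ the 0 lower (128) became 2 with DESeq2 (380), and 0 of 15128 genes passed without WT/-. For HAQ/- over WT/- the 2 higher (1201) became 1 with DESeq2 (875), 4 with total counts only (2062) and 1 without WT/HAQ (1018). At a fold of 1.2, cGAMP raised 8 and lowered 8 members in WT/HAQ (24.2% and 26.6% of all genes), 8 and 5 in WT/- (23.0% and 22.5%), and 4 and 4 in HAQ/- (15.5% and 17.3%). At 2-fold, 0 were lowered in WT/HAQ (5.36%), 1 was raised (6.58%) and 0 lowered (3.48%) in WT/-, and 1 was raised in HAQ/- (3.12%). Between controls at 1.2, WT/- over WT/HAQ had 12 raised (27.5%) and 7 lowered (24.9%), HAQ/- over WT/HAQ 2 (19.0%) and 10 (21.1%), and HAQ/- over WT/- 5 (26.5%) and 18 (29.1%). At 2-fold these had 1 raised (5.72%), 0 lowered (3.88%) and 2 lowered (7.62%). With total counts only, WT/- over WT/HAQ had 1 lowered, HAQ/- over WT/HAQ 1 lowered and HAQ/- over WT/- 1 raised, and the lysosomal median of the last was -0.23. That scaling moved the all-gene median of HAQ/- over WT/- from 0.0023 to 0.10. Of 504 values of single genes, 464 kept their size, 14 were stronger and 26 weaker. Of 48 counts of tests 31 held, of 84 counts of folds 62, and of 60 medians 59. Left out after their values were seen, SQSTM1 and CTSL turned the log2 ratio of library share, cGAMP over control, in WT/-, from -0.176 to 0.0458 for autophagy members without SQSTM1 and from 0.0105 to -0.00891 for lysosomal members without CTSL, and the other 4 ratios moved toward 0. Each line and treatment has 1 library, and each edited line is 1 clone, so genotype and clone cannot be told apart. LAMP3 is limited by depth, with 12 counts in the HAQ/- control.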
